A study of Mus musculus with 42 samples.

Results

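Cytosolic ribosomal protein genes encode the proteins of the large (60S) and small (40S) subunits of the ribosome, which translates messenger RNA into protein. Members were the protein-coding genes whose mouse symbol is Rpl or Rps followed by a number and optionally a, x or l, together with *Rplp0*, *Rplp1*, *Rplp2* and *Rpsa*. Kinases of the Rps6k family and pseudogenes were left out. The rule found 81 members, 49 of the 60S and 32 of the 40S subunit, among 56953 genes of the count table.

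The samples were paired left and right parts of the heart field of single mouse embryos at E8.5i, a stage at which the direction of heart looping can be seen. The embryos came from one mouse line on a C57Bl/6J background and were 5 *Ccdc40*+/+ wild types, 11 *Ccdc40*lnks/lnks mutants with rightward looping and 5 *Ccdc40*lnks/lnks mutants with inverted looping. The lnks allele is a chemically induced nonsense mutation of *Ccdc40*, a component of motile cilia, and is carried in the germline. The tissue sampled ended at the second somite, lacked the heart tube and was for the most part dorsal pericardial wall, a mixture of cell types. The groups held 4, 6 and 3 males and 1, 5 and 2 females. Poly(A) RNA of both sides of each embryo was sequenced, giving 42 libraries of 36073684 to 62970327 counts. *Ccdc40* itself was at 15.2 to 26.5 CPM in the 10 wild-type libraries and at 8.83 to 14.8 CPM in the 32 mutant libraries. Of the second heart field, the progenitors of this tissue, all 7 markers were detected, and they summed to 208 to 501 CPM in a library. CPM are the counts of a gene scaled to a common library total, here by the effective library size, which adjusts the total for composition.

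A cell makes ribosomal proteins in nearly equal numbers, because each ribosome holds about as many copies of one protein as of another, and most of their messenger RNAs are among the most abundant of the cell. Many start with a 5′ terminal oligopyrimidine (TOP) tract, a C followed by pyrimidines, through which their translation is controlled together by growth signals acting on mTOR. For their abundance they are often used as reference genes and their share of counts as a sign of how a library was made. The question here was whether their levels and their right over left ratios were stable across the 21 embryos.

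The starts of these genes are shown because they are the feature by which ribosomal protein messenger RNAs are recognised. RefSeq promoter sequence on GRCm38.p6 was held for 60 of the 81 members. Each line below gives 15 bases on either side of the annotated start, 5′ to 3′ on the strand of the gene, and capitals mark the TOP tract from the first transcribed base.
Rpl14: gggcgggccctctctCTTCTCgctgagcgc
Rpl15: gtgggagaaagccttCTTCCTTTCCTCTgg
Rpl38: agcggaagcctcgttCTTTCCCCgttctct
Rplp2: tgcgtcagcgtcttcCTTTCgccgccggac
Rps6: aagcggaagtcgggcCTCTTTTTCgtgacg
Rps10: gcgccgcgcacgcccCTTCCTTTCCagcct
Rps18: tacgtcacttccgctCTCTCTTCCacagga
Rps21: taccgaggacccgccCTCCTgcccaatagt
On GRCm38.p6 these windows are chr9:120571502-120571531, chr14:18270972-18271001, chr11:114668565-114668594, chr7:141447636-141447665, chr4:86857353-86857382, chr17:27635230-27635259, chr17:33955651-33955680 and chr2:180257364-180257393, with *Rpl15*, *Rps6*, *Rps10* and *Rps18* on the minus strand.

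A C at the start followed by at least 4 pyrimidines was present in 13 of the 60 members (21.7%) and in 813 of 27025 genes of the promoter table (3.01%). The annotated base need not be the base at which most transcripts begin, so a start without the tract says only that these letters were not at that base. Motifs were sought on either strand over 250 bases before and 50 after each annotated start of a gene. CCGGAAG, letters found in sites of ETS factors, was in 25 members (41.7%) against 9.93% of the genes of the promoter table. AAGATGGC, the core of the YY1 motif, was in 5 members (8.33%) against 3.19%. TATAAA was in 6 members (10.0%) against 15.7%. The searches of these 3 motifs were independent and their matches may overlap. The 13 members with a TOP start had a median level of 770 CPM per kb of coding sequence, and 43 members of at least 10 CPM without it had 711 CPM per kb.

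Nearly every member was abundant on both sides of every embryo. Of the 81 members, 77 averaged at least 10 CPM over the 42 libraries, 73 averaged at least 100 CPM, and 79 passed the filter on low counts. The members together took 2.51% to 3.39% of the counts of a library (median 2.88%). In CPM per kb of coding sequence, the median was 670 for 45 members of the 60S and 736 for 32 of the 40S subunit, among those of at least 10 CPM.

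The highest level per kb of coding sequence was that of *Rpl41*, at 2891 CPM per kb. *Rpl41* encodes the smallest protein of the ribosome. The coding length used here is that of the annotation's canonical transcript, which for *Rpl41* (138 bases), *Rpl39* (237 bases) and *Rps29* (285 bases) is longer than the usual coding sequence, so that their values per kb are lower than with the usual one. *Rps14*, a 40S protein, followed at 1483 CPM per kb and *Rplp0*, the base of the stalk to which elongation factors bind, at 1443 CPM per kb. The order at the top depends on the length used. By the length of the canonical transcript the first 3 were *Rps14*, *Rps18* and *Rplp0*, and by the union of annotated exons *Rpl4*, *Rps2* and *Rplp0*, so that *Rplp0* was among the first 3 with each of the 3 lengths.

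**Figure D1:**
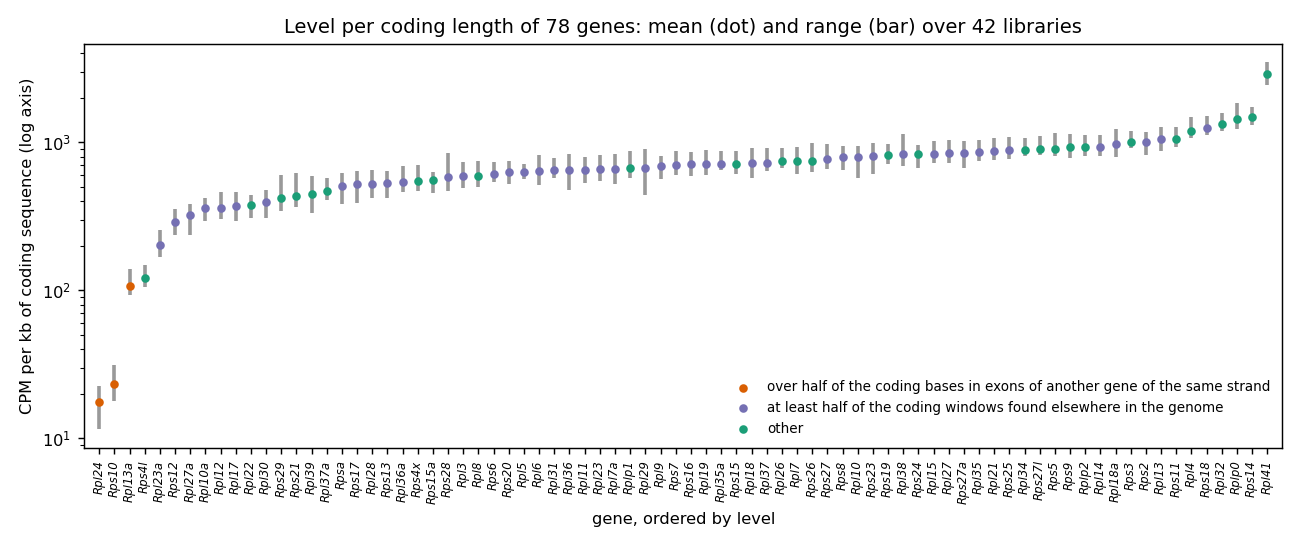
Mean level of each member of at least 1 CPM, in CPM per kb of coding sequence on a log10 axis, over the 42 libraries. Most members lay within a narrow band around the medians of 670 (60S) and 736 (40S) CPM per kb, while *Rpl24* (17.6) and *Rps10* (23.1) lay far below it. *Rpl10l*, *Rpl3l* and *Rpl39l*, which averaged under 1 CPM, are not drawn.

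*Rpl24*, *Rps10* and *Rpl13a* were low and lie in exons of other annotated genes. *Rpl24*, a 60S protein, averaged 8.27 CPM, or 17.6 CPM per kb. All of its 100-base coding windows occurred elsewhere in the genome and 83.4% of its coding bases lay in exons of other genes of its strand. *Rps10*, a 40S protein, averaged 11.4 ± 1.57 CPM (SD, n = 42 libraries), or 23.1 CPM per kb, with 72.2% of windows repeated and 92.1% of coding bases shared with *Gm49804*. *Rpl13a*, a 60S protein that also takes part in translational silencing after interferon, averaged 64.9 CPM, or 107 CPM per kb, with 97.5% of its coding bases in exons of *Gm45713*. *Gm49804* and *Gm45713* had a count of 0 in all 42 libraries, as had *Gm28037*, which overlaps *Rpl24*.

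Repeated windows were also found in abundant members. *Rpl12* and *Rpl5*, of which the second carries the 5S RNA into the ribosome, had 100% of windows repeated and averaged 179 and 564 CPM. The 48 members with at least 50% of their coding windows repeated had a median of 666 CPM per kb and the 29 others a median of 753 CPM per kb. The part of repeats in the levels was not tested. *Rpl28*, whose coding bases all lie opposite *Ube2s* on the other strand, averaged 215 CPM. How reads on several genes and several places were counted, and whether strand was used, is not given in the sources used here, so the levels of *Rpl24*, *Rps10* and *Rpl13a* are uncertain. The 323 pseudogene rows of ribosomal proteins summed to 293 to 569 CPM in a library (median 420 CPM), with *Rpl14-ps1* highest at 10.4 CPM.

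Among the 5 pairs of a gene and its paralog in which both are members by their symbols, the paralog was at the floor in 3. *Rpl3* averaged 714 CPM and *Rpl3l*, its form in adult heart and skeletal muscle, 0.061 CPM. *Rpl10* averaged 509 CPM and *Rpl10l*, its form in male germ cells, 0.014 CPM. *Rpl39* averaged 107 CPM and *Rpl39l*, also a form of the testis, 0.164 CPM. The other two pairs were expressed on both sides of the pair. *Rps27* averaged 194 CPM and *Rps27l*, which p53 induces, 228 CPM. *Rps4x* averaged 435 CPM and the autosomal *Rps4l* 94.8 CPM. Per kb of coding sequence, *Rps4l* was at 121 CPM per kb and *Rps4x* at 551 CPM per kb.

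Ribosomal proteins that the rule leaves out because of their symbols were also abundant. *Rack1*, a 40S protein and signalling scaffold, averaged 686 CPM, *Rps3a1* 463 CPM, and *Fau*, which encodes a 40S protein fused to a ubiquitin-like protein, 274 CPM.

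The level of most members varied little between libraries. Over 42 libraries the coefficient of variation of CPM ranged from 4.87% (*Rpl5*) to 15.0% (*Rpl29*) among the 77 members of at least 10 CPM. *Rplp0* averaged 1372 ± 111 CPM (SD, n = 42 libraries), from 1175 to 1757 CPM. The SD between embryos of the mean log2 level of both sides had a median of 0.0772 over the 77 members, beside 0.0810 over 2646 genes of at least 100 CPM and 0.0862 over 13 reference genes. By this measure the members varied about as much as other genes of high level.

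*Rpl29*, a 60S protein that also binds heparin, stood apart with the widest gap between embryos of any of the 77 members. In 3 embryos both sides lay below all other libraries. Embryo 2_2, a mutant with rightward looping, was at 219 (left) and 235 CPM (right). Embryos 2_7 and 4_6, mutants with inverted looping, were at 245 and 224 CPM (left) and at 212 and 217 CPM (right). In the other 18 embryos *Rpl29* was between 272 and 434 CPM (median 339 CPM), and the gap between the embryo means was 0.36 on the log2 scale. *Rps29*, *Rpl38* and *Rps28* had the widest gaps after it together with *Rps23*, and in each of *Rps29*, *Rpl38* and *Rps28* the embryos 10_1, 1_6 and 4_6 were the highest. These gaps were read from the values and carry no test.

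The share of counts on the members was compared between the sides of each embryo. In wild types the share on the left and right was 2.93% and 2.68% in embryo 17_7, 2.86% and 2.78% in 22_4, 2.95% and 2.98% in 7_1, 2.72% and 2.89% in 8_1, and 2.60% and 3.39% in 10_1. In mutants with inverted looping it was 2.99% and 2.56% in 32_2, 3.13% and 2.80% in 2_7, 3.05% and 2.69% in 18_2, 2.80% and 2.75% in 10_3, and 3.07% and 3.09% in 4_6. In the 11 mutants with rightward looping it ranged from 2.73% to 3.06% on the left (median 2.88%) and from 2.51% to 3.17% on the right (median 2.88%). The ranges of the 3 groups overlapped on either side, and the right of embryo 10_1 had the highest share of all libraries.

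**Figure D2:**
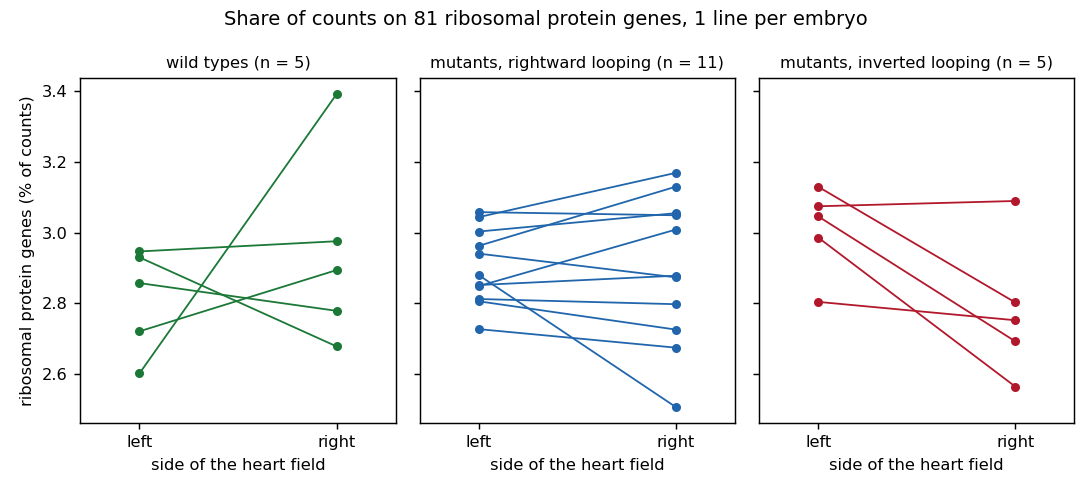
Share of counts on the 81 members (% of counts of a library) on the left and right of each embryo, 1 line per embryo, in 5 wild types, 11 mutants with rightward looping and 5 mutants with inverted looping. The wild-type embryo 10_1 goes from 2.60% to 3.39%, and 4 of the 5 lines of inverted looping go down to the right.

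The members were split between the sides to a different degree from embryo to embryo, from 42 higher and 35 lower on the right in 7_1 to 77 higher in 10_1. Medians of log2 right over left were taken over the 79 members that passed the filter on low counts. The median was −0.12 in the wild-type embryo 17_7, −0.07 in 22_4, 0.0061 in 7_1, 0.08 in 8_1 and 0.43 in 10_1. It was −0.24 in 32_2, −0.17 in 2_7, −0.14 in 18_2, −0.03 in 10_3 and 0.04 in 4_6 among mutants with inverted looping. Among mutants with rightward looping it ranged from −0.21 (22_1) to 0.11 (3_7), with a median of −0.0206. These medians were not tested, since the members were chosen with results known.

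In 6 embryos at least 76 of the 77 members lay on 1 side. All 77 were higher on the right in 10_1 and 76 in 3_7, and 76 were lower on the right in each of 32_2, 2_7, 18_2 and 22_1. The genes of at least 100 CPM were more evenly split, as 63.0%, 70.6%, 39.4%, 43.4%, 54.9% and 51.9% of these 2646 genes were higher on the right in the same 6 embryos. Where 76 were lower, the single member against the direction was *Rps4l* in 32_2 and 18_2, *Rps10* in 2_7 and *Rps14* in 22_1. That of 3_7 is not named here.

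**Figure D3:**
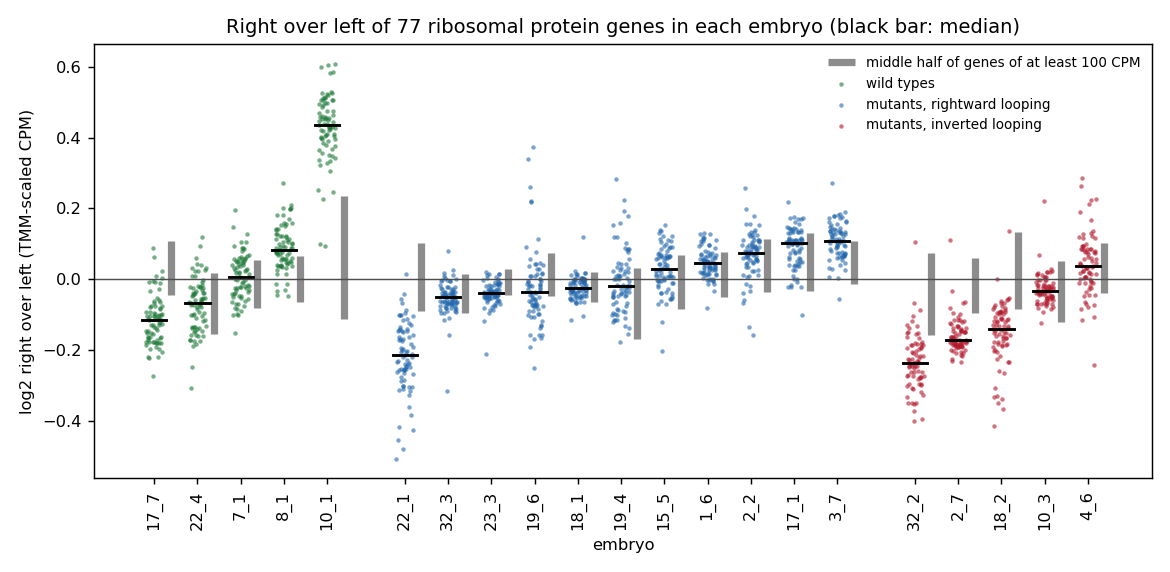
log2 right over left of the 77 members of at least 10 CPM in each of 21 embryos, 1 point per member, grouped by genotype and looping. The points of an embryo form a tight column whose centre moves between embryos. The medians over the 79 members that passed the filter on low counts run from −0.24 in 32_2 to 0.43 in 10_1.

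Most of the spread between embryos was shared by the members. The SD of log2 right over left over 21 embryos had a median of 0.15 over the 77 members, from 0.10 (*Rpl35*) to 0.23 (*Rpl39*). After the median of the members in each embryo was subtracted, the SD had a median of 0.05 and was smaller in 76 of 77 members, with and without embryo 10_1. The exception was *Rps4l*, whose SD went from 0.10 to 0.16. The SD that counting error alone gives at this depth had a median of 0.0171, and its largest value, 0.09, was that of *Rps10*, the member with the fewest counts of the 77.

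How the members stood beside other genes of high level depended on embryo 10_1. Over all 21 embryos their median SD of 0.15 stood beside 0.12 for the 2646 genes of at least 100 CPM, 0.11 for 77 mitochondrial ribosomal proteins, 0.14 for 13 reference genes and 0.47 for all 26335 genes tested. Without 10_1 it was 0.111, beside 0.113 for the genes of at least 100 CPM, 0.0953 for mitochondrial ribosomal proteins, 0.123 for reference genes and 0.459 for all genes tested. With any other embryo left out the median of the members was 0.147 to 0.156. Over all 21 embryos an SD under 0.2 was found in 93.5% of the members and 85.6% of genes of at least 100 CPM, and without 10_1 in 100% and 88.3%. Among the reference genes, *Ywhaz*, which encodes a 14-3-3 adaptor protein, had an SD of 0.06, *Actb* one of 0.08 and *Gapdh* one of 0.16. *Rplp0*, *Rps19* and *Rps6* had SDs of 0.15, 0.13 and 0.12.

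**Figure D4:**
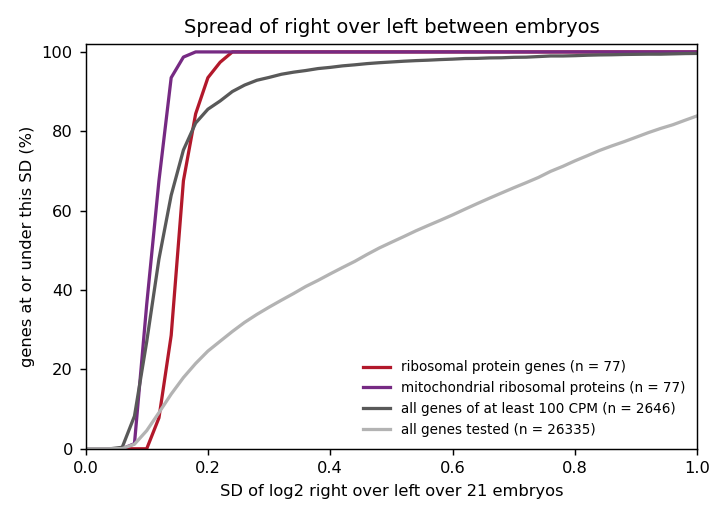
Cumulative share of genes (%) against the SD of log2 right over left over 21 embryos, for 77 members, 77 mitochondrial ribosomal proteins, 2646 genes of at least 100 CPM and all 26335 genes tested. The curve of the members starts later than those of the mitochondrial ribosomal proteins and of genes of high level (medians 0.15, 0.11 and 0.12, with embryo 10_1 included), and passes the latter near its top.

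Among the 77 members of at least 10 CPM, those with the largest SD were *Rpl39* (0.23), *Rps10* (0.22) and *Rps28* (0.21), and those with the smallest were *Rpl35* (0.10), *Rps4l* (0.10) and *Rps14* (0.11). *Rpl39* and *Rps28* are among the 9 of these 77 members with a coding sequence under 300 bases, the others being *Rpl37*, *Rpl38*, *Rpl41*, *Rps21*, *Rps27*, *Rps27l* and *Rps29*. These 9 were set apart after their values were seen. Their median log2 right over left exceeded that of the 68 other members by 0.27 in 19_6, 0.18 in 4_6 and 0.15 in 19_4, and all 9 lay over the median of the others in these 3 embryos. In 18_2 it was lower by 0.09, with 2 of 9 over the median of the others. In the other 17 embryos the difference lay between −0.07 and 0.09. There the members over the median of the others were 0 of 9 in 23_3, 1 of 9 in 17_1 and up to 8 of 9, as in 2_7.

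The wild-type embryo 10_1 carried the largest shift. The right side was higher in all 77 members, by 0.09 (*Rps2*) to 0.61 (*Rpl39*) on the log2 scale. Its sides also differed in the marker lists of other tissues, whose summed CPM was lower on the right for heart muscle (log2 −1.65), visceral endoderm (−3.36), sinus venosus and proepicardium (−1.20) and foregut endoderm (−0.81), and higher on the right for neural tube (2.77). Second heart field (−0.71), immediate early genes (−0.57), endothelium (−0.48) and neural crest (−0.26) were also lower on the right. Paraxial mesoderm (0.97) and blood (0.41) were higher. Translation elongation factors had a median of 0.42, ribosome biogenesis genes of 0.34 and mitochondrial ribosomal proteins of 0.23 there. The part of the tissue markers in the shift was not tested. In bulk tissue fewer cells of a type and less RNA per cell cannot be told apart.

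In the wild types no difference between left and right was called. edgeR's quasi-likelihood test with the embryo as a block called 0 of the 79 members tested at an adjusted p under 0.05, where it called 0.00% of 23182 genes. At an unadjusted p under 0.05 it had 0 members beside 2.76% of all genes, and DESeq2 called 0 members and 20 genes. The median log2 fold change was 0.06 over the members and 0.002 over all genes, and 77 of the 79 members had a value above 0 beside 50.6% of all genes. Without embryo 10_1 the median of the members was −0.02, and without 17_7 it was 0.10.

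The members with the smallest p in the wild types were *Rplp2*, a stalk protein, at 0.12 ± 0.07 (log2 fold change ± SE, 5 embryos), *Rps28* at 0.12 ± 0.08 and *Rpl36* at 0.15 ± 0.10, with an edgeR adjusted p of 0.9998 each. Without 10_1 their values were 0.05, 0.05 and 0.05. *Rplp0* had left and right levels of 1302 and 1175 CPM in 17_7, 1332 and 1274 CPM in 22_4, 1446 and 1470 CPM in 7_1, 1403 and 1417 CPM in 8_1, and 1284 and 1757 CPM in 10_1. The sides overlapped, and the right of 10_1 held the highest value. Its log2 fold change was 0.05 ± 0.09 with all 5 wild types and −0.04 without 10_1.

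In the mutants with rightward looping no member was called either. edgeR called 0 of 79 members and 0.0263% of 22795 genes. At an unadjusted p under 0.05 there were 0 members beside 3.59% of all genes, and DESeq2 called 0 members and 32 genes. The median of the members was −0.0085, with 32 values above 0 and 47 below. *Rpsa*, the laminin receptor precursor of the 40S subunit, was at −0.05 ± 0.03 (log2 fold change ± SE, 11 embryos), *Rpl24* at −0.09 ± 0.07 and *Rps29* at 0.06 ± 0.05, with an edgeR adjusted p of 0.9999 each.

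The median of this group also moved when single embryos were left out, most of all without 22_1. It lay between −0.0161 (without 2_2) and 0.0027 (without 23_3) with another embryo left out. Without 22_1, in which 76 of the 77 members were lower on the right, the median was 0.02 and 6 members had an unadjusted p under 0.05 beside 3.33% of all genes, none of them called. The share of counts on mitochondrially encoded genes was also lower on the right of 22_1, by a log2 value of −0.31. The part of this in the shift was not tested.

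In the mutants with inverted looping most members had a log2 fold change below 0 that did not reach the threshold of edgeR. edgeR called 0 of 79 members and 2.04% of 22960 genes, 395 of them higher and 73 lower on the right. At an unadjusted p under 0.05 there were 27 members, all lower on the right, beside 5.81% of all genes lower. The median log2 fold change was −0.10 over the members and −0.0050 over all genes, and 77 of the 79 had a value below 0 beside 51.2% of all genes. DESeq2 called 11 members, all lower on the right, beside 7.64% of genes, namely *Rpl3*, *Rpl6*, *Rpl7*, *Rpl7a*, *Rpl10a*, *Rpl30*, *Rplp0*, *Rps2*, *Rps4x*, *Rps12* and *Rpsa*, with log2 fold changes from −0.18 (*Rpsa*) to −0.13 (*Rplp0*).

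*Rpl7a*, a 60S protein, had the smallest p in the mutants with inverted looping. Its left and right levels were 530 and 497 CPM in 10_3, 548 and 484 CPM in 18_2, 602 and 538 CPM in 2_7, 558 and 454 CPM in 32_2, and 561 and 531 CPM in 4_6. The right was lower in 5 of 5 embryos while the ranges of the sides overlapped. Its log2 fold change was −0.15 ± 0.04 (SE) with an edgeR adjusted p of 0.106. DESeq2 gave −0.16 with an adjusted p of 0.00414.

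*Rps4x*, the X-linked gene of a 40S protein, was likewise lower on the right in 5 of 5 embryos. Its left and right levels were 425 and 411 CPM in 10_3, 457 and 408 CPM in 18_2, 484 and 419 CPM in 2_7, 444 and 370 CPM in 32_2, and 457 and 431 CPM in 4_6. Its log2 fold change was −0.15 ± 0.04, with an edgeR adjusted p of 0.131. *Rpl10a*, a 60S protein, had −0.14 ± 0.04 with an edgeR adjusted p of 0.154. *Rplp0* was lower on the right in 5 of 5 embryos as well, with −0.13 ± 0.04 and an edgeR adjusted p of 0.190.

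Of the 79 members tested, 17 were lower on the right in each of the 5 embryos, where 7.51% of all genes tested were. In the wild types and the mutants with rightward looping no member was higher or lower on the right in every embryo, where 2.86% and 2.31% of all genes were in the wild types and 0.0263% and 0.0965% with rightward looping. The autosomal *Rps4l* was the exception among abundant members with inverted looping, with right and left levels of 99.7 and 85.6 CPM in 10_3, 101 and 91.9 CPM in 18_2, 110 and 117 CPM in 2_7, 100.5 and 93.3 CPM in 32_2, and 105 and 104 CPM in 4_6. It was higher on the right in 4 of 5 embryos, and its log2 fold change was 0.09 ± 0.05 with an edgeR adjusted p of 0.507. *Rpl39l*, which averaged 0.164 CPM, was the other member with a value above 0.

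The lean to the left in these 5 embryos rested on some of them more than on others. Without embryo 4_6 the median was −0.13, and 53 members had an unadjusted p under 0.05 beside 14.1% of all genes in either direction. Without 32_2 the median was −0.06, with 5 such members beside 10.3%. Without 2_7 it was −0.08, with 8 members beside 14.8%, and without 18_2 it was −0.11, with 13 members beside 11.9%. In the 3 males alone it was −0.03, with 0 members beside 9.21%. In the same embryos the summed CPM of heart muscle markers was higher on the right in 5 of 5 (log2 0.66 to 1.42) and that of neural tube markers lower in 5 of 5 (log2 −0.66 to −3.08). The 8 muscle markers summed to 1336 to 2556 CPM on the left and 2521 to 5302 CPM on the right, and edgeR called 6 of them higher. The 5 neural tube markers summed to 41.5 to 85.9 CPM on the left and 10.2 to 43.6 CPM on the right, and edgeR called *Pax6* lower. No marker of either list averaged 0. The lists of sinus venosus and proepicardium (log2 0.50 to 0.87), second heart field (0.01 to 0.47), endothelium (0.12 to 0.34) and immediate early genes (0.0080 to 0.15) were also higher on the right in 5 of 5. From these lists edgeR called *Shox2* (1.09), *Tbx5* (0.74), *Hcn4* (0.76), *Mef2c* (0.73), *Fos* (0.95) and *Jun* (0.26) higher on the right. The part of these lists in the lean was not tested.

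Other genes of the translation machinery stood beside the members in the mutants with inverted looping. The log2 fold change was below 0 in all 6 elongation factors tested (median −0.08), in all 7 other messenger RNAs known for a TOP tract (−0.14), in all 7 ribosomal proteins under other symbols (−0.10) and in 29 of 30 ribosome biogenesis genes (−0.11). It was below 0 in 22 of 25 initiation factors (−0.05) and in 57 of 77 mitochondrial ribosomal proteins (−0.02). It was also below 0 in 8 of 14 genes that control the making of ribosomes, such as *Myc* and *Mtor* (−0.01), and in 7 of 10 p53 targets (−0.02). edgeR called 0 genes in each of these lists, beside 2.04% of all genes. These counts stand beside 51.2% of all genes below 0 and 5.81% lower at an unadjusted p under 0.05. At an unadjusted p under 0.05 there were 1 elongation factor, 4 other TOP messenger RNAs, 2 ribosomal proteins under other symbols, 14 biogenesis genes, 2 initiation factors, 1 mitochondrial ribosomal protein, 0 control genes and 2 p53 targets.

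**Figure D5:**
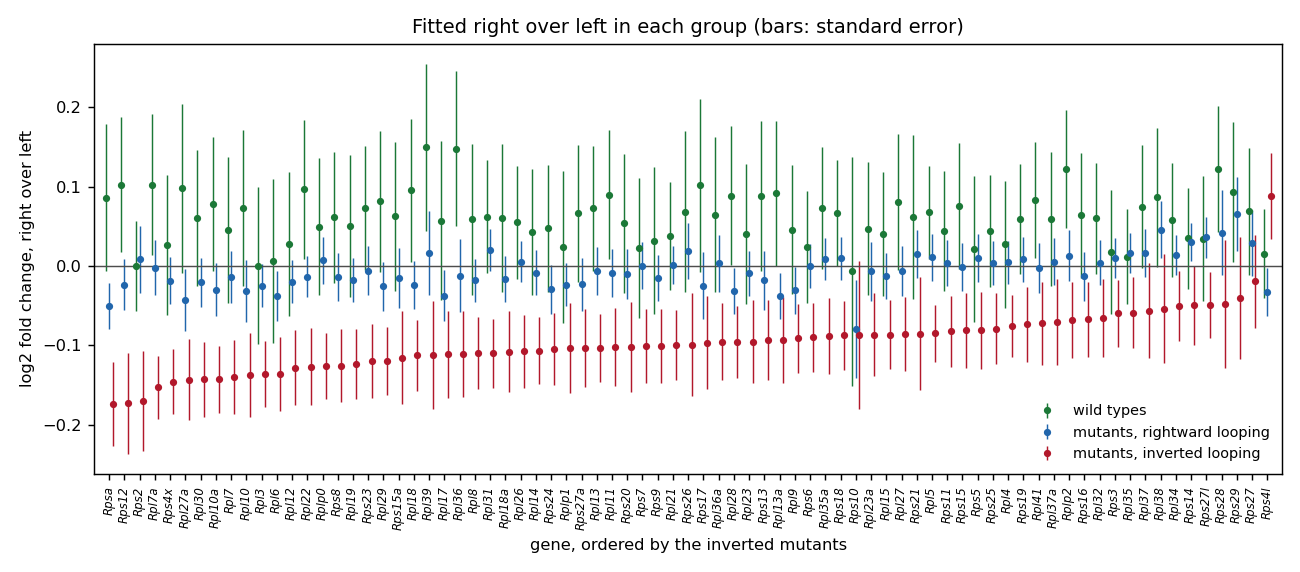
log2 fold change of right over left of each of the 77 members of at least 10 CPM. The groups are 5 wild types, 11 mutants with rightward looping and 5 mutants with inverted looping. The medians over all 79 members tested are 0.06, −0.0085 and −0.10, and no member passed an adjusted p of 0.05 by edgeR.

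The left-right difference was then compared between groups, in tests of side by group over all 42 libraries. These comparisons share groups, so they are not independent of each other. Between mutants with rightward looping and wild types 0 of 79 members and 0.00% of 26335 genes were called by edgeR, 0 members had an unadjusted p under 0.05 beside 3.04% of all genes, and DESeq2 called 0 members. The median difference was −0.06 with embryo 10_1 and 0.02 without it, and without 17_7 it was −0.12, with 7 members beside 4.46% of all genes at an unadjusted p under 0.05. *Rpl36* differed by −0.16 ± 0.10, *Rpsa* by −0.14 ± 0.08 and *Rpl13a* by −0.13 ± 0.07, with an edgeR adjusted p of 0.9998 each.

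Between mutants with inverted looping and wild types 0 members and 0.513% of genes were called by edgeR, and DESeq2 called 0 members. At an unadjusted p under 0.05 there were 29 members, all with a lower value in inverted looping, beside 5.89% of all genes with a lower value. The median difference was −0.17. It depended on embryo 10_1, without which the median was −0.08 and 4 members had an unadjusted p under 0.05 beside 8.97% of all genes in either direction. Without 32_2, 18_2, 2_7 and 8_1 there were 7, 11, 13 and 18 such members beside 10.6% to 13.7%, and without 4_6 and 17_7 there were 51 and 59 beside 13.6% and 14.5%. *Rps12* differed by −0.29 ± 0.09 (edgeR adjusted p = 0.163), *Rpsa* by −0.28 ± 0.09 (0.181) and *Rpl7a* by −0.27 ± 0.09 (0.181).

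Between both mutant groups 0 members and 0.311% of genes were called, and DESeq2 called 0 members. At an unadjusted p under 0.05 there were 3 members beside 10.5% of all genes, and with 1 embryo left out the count ran from 0 to 24. It was 24 beside 11.9% without 10_1, 14 beside 10.4% without 22_1, 14 beside 10.1% without 4_6 and 8 beside 10.2% without 10_3, and it was 0 beside 8.15% without 32_2 and 0 beside 7.95% without 18_2. The median difference was −0.10, lower with inverted looping, and ran from −0.14 without 4_6 to −0.07 without 32_2. *Rps2*, a 40S protein near the entry of the messenger RNA, differed by −0.19 ± 0.08 (edgeR adjusted p = 0.377), *Rpl31* by −0.14 ± 0.06 (0.409) and *Rpl7a* by −0.16 ± 0.08 (0.464).

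Levels were compared between groups on each side, with sex as a covariate. On the left of mutants with rightward looping against wild types edgeR called 0 members and 0.0242% of 24838 genes, 4 members had an unadjusted p under 0.05 beside 5.02% of all genes, DESeq2 called 0 members, and the median was 0.03. With 1 embryo left out there were 3 to 16 such members, the 16 beside 4.05% without 7_1 and 7 beside 4.65% without 22_4. The median was 0.06 without 7_1, 0.02 without 10_1 and 0.01 without 8_1. *Rplp2* was at 0.11 ± 0.03 (edgeR adjusted p = 0.864). On the left of mutants with inverted looping against the same wild types edgeR called 0 members and 0.0282% of genes, 16 members, all higher, had an unadjusted p under 0.05 beside 2.99% of all genes higher, and the median was 0.08. Without 10_1 that median was 0.06, with 5 such members beside 5.48% of all genes in either direction. There were 5, 6, 8 and 10 such members without 8_1, 4_6, 18_2 and 2_7, beside 5.96%, 7.16%, 7.00% and 7.09%, and 27 and 25 without 7_1 and 10_3, beside 7.35% and 7.45%. DESeq2 called 2 members there, *Rplp2* and *Rps12*, beside 0.314% of genes.

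*Rplp2*, which forms the ribosomal stalk with *Rplp1* on *Rplp0*, was at 285, 291, 292, 308 and 313 CPM on the left of the wild types and at 320, 325, 331, 342 and 344 CPM on the left of mutants with inverted looping. The groups did not overlap. Its log2 fold change was 0.15 ± 0.04 with an edgeR adjusted p of 0.290, and DESeq2 gave an adjusted p of 0.0126. *Rps12*, a 40S protein, was at 110, 112, 123, 126 and 130 CPM on the left of wild types and at 129, 135, 144.5, 144.6 and 149 CPM on the left of mutants with inverted looping, which overlap by 1 value. Its log2 fold change was 0.25 ± 0.06 with an edgeR adjusted p of 0.295 and a DESeq2 adjusted p of 0.0333. *Rpl41* was at 0.14 ± 0.04 (edgeR adjusted p = 0.431).

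On the left of mutants with inverted looping against those with rightward looping 0 members and 0.0121% of genes were called, 2 members had an unadjusted p under 0.05 beside 7.89% of all genes, DESeq2 called 0 members, and the median was 0.05. With 1 embryo left out there were 0 to 6 such members, the 6 beside 9.41% without 19_4, and the median was 0.03 (without 4_6) to 0.06 (without 10_3). The neural tube list was higher on the left of inverted looping than of wild types in all 5 genes (median log2 fold change 0.67) and the heart muscle list lower in 7 of 8 (−0.48), with 0 genes of either list called. The part of these tissues in the levels of the members was not tested.

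On the right the members showed no call in any group. Between mutants with rightward looping and wild types edgeR called 0 members and 0.0121% of 24859 genes, with 0 members at an unadjusted p under 0.05 beside 3.28% of all genes and a median of −0.03. That median was 0.04 without 10_1, −0.0070 without 22_1, −0.0071 without 23_3, −0.0179 without 18_1, −0.06 without 22_4 and −0.07 without 17_7. Between mutants with inverted looping and wild types it called 0 members and 0.00% of genes, with 2 members at an unadjusted p under 0.05 beside 5.93% of all genes, and a median of −0.08. The median was −0.02 without embryo 10_1, with 1 such member beside 3.70%. It was −0.13 without 17_7, with 10 members beside 7.43%, −0.12 without 22_4, with 5 members beside 8.89%, and −0.14 without 4_6, with 4 members beside 5.05%. *Rps4l* was at 0.18 ± 0.07 and *Rpl29* at −0.36 ± 0.14, with an edgeR adjusted p of 0.803 each. The value of *Rpl29* includes embryos 2_7 and 4_6 described above. Between both mutant groups 0 members and 0.00805% of genes were called, with 2 members at an unadjusted p under 0.05 beside 4.26% of all genes and a median of −0.06, which was −0.11 without 4_6 and −0.03 without 32_2. DESeq2 called 0 members in these 3 comparisons.

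No member passed the threshold between the sexes. Between females and males edgeR called 0 members on the left, beside 0.0564% of genes, and 0 on the right, beside 0.0523%, with 2 and 0 members at an unadjusted p under 0.05 beside 7.31% and 5.66% of all genes, and 0 called by DESeq2 on either side. The median was 0.01 on the left (0.0032 to 0.0297 with 1 embryo left out) and −0.04 on the right (−0.0641 to −0.0226). The X-linked members are *Rpl10*, *Rpl36a*, *Rpl39* and *Rps4x*, and none of them was among the 3 with the smallest p on either side. *Rps12* was at −0.10 and *Rps4l* at 0.10 on the left.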

How the data were processed

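Left and right heart fields of 21 embryos gave 42 poly(A) libraries, prepared from 10 ng of RNA each. The authors trimmed adapters, removed duplicates, aligned reads to GRCm39 with STAR, counted them per gene with featureCounts (Subread 2.0.6) and deposited raw counts without normalization. Counting options for strand and repeated reads are not given in the sources used here. GENCODE held 56310 of the 56953 identifiers.

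Counts were kept by filterByExpr with a minimum count of 5, a minimum total of 10, 50 as the size of a large group and a proportion of 0.2, scaled by TMM and tested by edgeR 4.0.16 (R 4.3.3) with its quasi-likelihood test. The Benjamini-Hochberg adjustment covered all genes tested, and genes were called at an adjusted p under 0.05. Tests of right against left were fitted within each group with the embryo as a block, since the labels name the embryo of each library. Differences of these between groups were interactions over all 42 libraries, and levels were fitted per side with sex as a covariate. Fits were tested on simulated data first. log2 ratios per embryo used a prior count of 2, and single-library levels carry counting error from totals of at least 36073684 counts. Levels per kb used the coding length of the Ensembl canonical transcript. A coding window of 100 bases was repeated where its sequence occurred elsewhere in the genome.

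Alternatives were DESeq2 1.42.0, other scaling and filters, no block, no sex covariate, males alone, a fit of all libraries and each embryo left out. Named are members chosen by role or as paralog pairs, the 3 with the smallest p per comparison where none was called, those at the ends of level and spread, X-linked members and those under 1 CPM. Members and lists were chosen with earlier results of these data known. The groups are those of the labels, and laterality clusters were not used here.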

Additional observations from a re-analysis of the deposited data

Results flagged for a closer look

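The groups of 5 embryos examined numbered 80, for named members of at least 1 CPM, the shares of counts and the medians. In 6 of them 1 embryo lay far from the others, each in the log2 right over left of a named member, and chance gives about 1 in 20 such groups. In the wild-type embryo 10_1 the value was 0.40 for *Rpl15*, 0.51 for *Rpl29*, 0.45 for *Rplp0* and 0.50 for *Rps12*, each above the other 4 wild types. These 4 values come from the same pair of libraries. In the wild-type embryo 17_7 *Rps2* was at −0.20, below the other wild types. In the embryo 32_2 with inverted looping *Rpl10* was at −0.40, below the other 4. Groups of 11 embryos were not examined in this way.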

How the results depend on the processing

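Under 108 alternatives other than leaving out an embryo, the count of called members remained 0 in 106. DESeq2 called 11 members for right against left in inverted looping and 2 for the left level of inverted looping against wild types, and the cause was not tested. For the tests of side by group, the other level comparisons and the sexes, the number of all genes called by DESeq2 is not given here. Its 0 members there have no background beside them. Leaving out each embryo in turn gave 0 called members in all 252 refits. For right against left, the refits called 0 of all genes tested in wild types and 138 to 446 in inverted looping. For the difference in asymmetry between inverted looping and wild types they called 17 to 641. Without the embryo block, 0 members were called in each test of right against left and of its difference between groups, and 8 members in inverted looping had an unadjusted p under 0.05 beside 12.4% of all genes, against 27 with the pairing. The block changed no call of a member, and the number of all genes called without it is not given here.

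Among the 79 members, none of them called by edgeR, the sign of right over left turned without embryo 10_1 in 62 in wild types and without 22_1 in 35 in rightward looping. In males alone it turned in 4 in wild types, 31 in rightward looping and 4 in inverted looping, and with DESeq2 in 3 in rightward looping. *Rplp0*, *Rps6*, *Rps19* and the members with the smallest p were examined singly. Among these the sign turned for *Rps6* in rightward looping with library size alone (−0.00090). With each embryo left out, log2 fold changes in rightward looping ranged from −0.0047 to 0.0254 for *Rplp0* and from −0.0113 to 0.0178 for *Rps6*. In wild types they ranged from −0.0448 to 0.0972 for *Rplp0*, −0.0075 to 0.0908 for *Rps19* and −0.045 to 0.0643 for *Rps6*, each negative only without embryo 10_1. The lengths of transcripts and exon unions for levels per kb were added after seeing the data, and moved all 6 levels examined by more than 1 SD, *Rpl41* to 712 and 286 CPM per kb. Leaving out each embryo for the SD between embryos was also chosen after seeing the data. Counting error at this depth gave a median SD of 0.0171 in log2 right over left, which leaves out dissection and library preparation.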

Other observations

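Among genes of the lists set beside the ribosomal proteins, *Eif3b* and *Gar1* had a far wider spread between sides than the medians of their lists. The SD of log2 right over left over 21 embryos was 0.68 for *Eif3b*, a subunit of an initiation factor, at 110 CPM, where the median of 25 initiation factors was 0.12. It was 0.79 for *Gar1*, a protein of the RNA particles that modify ribosomal RNA, at 52.7 CPM, where the median of 30 ribosome biogenesis genes was 0.17. *Rrn3*, which recruits RNA polymerase I, had an SD of 0.08 between sides and one of 0.30 for its mean level between embryos. These genes were picked out after their values were seen.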
